A study of Mus musculus with 6 samples.

Results

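The 93 genes described here have symbols of subunits of the oxidative phosphorylation complexes, 13 of them in the mitochondrial genome and 80 in the nucleus. They were chosen by symbol from the 36083 genes of a per-library expression table. A member had to be protein-coding, had to average 1 or more across all 6 libraries, and needed a symbol that begins as those of complexes I to V do (mt-Nd, mt-Co, mt-Cytb, mt-Atp, Nduf, Sdh, Uqcr, Cox4 to Cox8, Atp5). Assembly factors were left out, although the rule took in Atp5s and Cox7a2l, which are not subunits in the strict sense. They are counted here with complexes V and IV. No measured difference between groups was used. Another 5 protein-coding rows matched but had a mean under 1, namely Cox6a2, Cox7b2, Cox8b, Cox8c and a second row of Atp5o, and 11 matching pseudogenes were not members.

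RNA-seq was done on lineage-negative (Lin-) cells sorted from the spleen of mice with blast crisis chronic myeloid leukemia (bcCML), to ask what loss of the proteoglycan Sdc1 changes in these cells. The leukemia was made by infecting KLS cells, which are blood stem and progenitor cells, with the BCR-ABL and NUP98-HOXA9 oncogenes, so both groups carry both. The 3 libraries labelled WT came from WT donors and the 3 labelled Sdc1 KO from Sdc1-/- donors, all on a B6 background, and the labels give NSG mice as recipients. The sources differ on the age of the mice, which is 8 to 16 weeks in one place and 4 to 8 weeks in another. The study describes RNA-seq libraries of WT Lin- bcCML cells as technical replicates, and no source says that libraries of either group are separate mice. SDs and p-values therefore measure only how libraries varied, which may be technical.

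Complex I takes electrons from NADH and complex II from succinate. Both pass them through ubiquinone to complex III, cytochrome c and complex IV, which reduces oxygen, and complex V uses the resulting proton gradient to make ATP. The mitochondrial genome is transcribed from both strands into long precursors that are then cut into single RNAs, and it encodes core subunits of complexes I, III, IV and V but none of complex II. All other subunits are transcribed in the nucleus, so every complex except II is assembled from the products of both genomes.

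Several facts of the libraries bear on what follows. The values are TPM, which scales each library to a fixed total, that the authors rescaled between libraries. Their sums were 1048875 to 1058263 in the WT libraries and 944973 to 951814 in the libraries labelled Sdc1 KO. The number of reads is unknown. Sdc1 mRNA was 1.75, 1.21 and 1.51 in the WT libraries and 3.85, 3.80 and 4.12 in those labelled Sdc1 KO, so the transcript was higher in the group labelled as the knockout. The allele is described as a break in the signal peptide that keeps the protein from the cell surface. The study checked the deletion by PCR of genomic DNA and by staining, but describes no such check of these libraries. The cause of the higher Sdc1 mRNA was not tested. The group labelled Sdc1 KO is called by its label throughout. The 4 Y-linked genes Eif2s3y, Ddx3y, Kdm5d and Uty summed to 0.276 to 0.308 in the WT libraries and 68.1 to 78.4 in the others. Markers of maturing cells also differed. All 13 neutrophil genes fell, from a summed 14189 to 15064 down to 5463 to 5582, and 8 of 9 erythroid genes fell and 1 rose, with sums that went from 9496 to 10198 down to 5259 to 5660. Of monocyte and macrophage genes 10 of 11 fell and 1 rose, and of mast cell and basophil genes 7 of 8 fell. Of 7 megakaryocyte genes 5 fell and 2 rose, with overlapping sums of 510 to 537 and 522 to 535, and 3 fell with each library set to a sum of 1000000. Immature progenitor markers were called higher for 5 of 7 genes and lower for 2, and proliferation genes higher for 7 of 9 and lower for 1. Over all genes tested, 29.3% were called higher and 31.3% lower. The T cell genes Cd3e, Cd4 and Cd8a and the B cell gene Pax5 had means of 0.00984 to 0.0586. All listed T and NK cell genes summed to 8.03 to 9.62 in the WT libraries and 8.51 to 9.33 in the others. The B cell genes summed to 2.88 to 3.37 and 2.63 to 3.35. None of the 3 tested T, NK or B cell genes was called as deposited. With each library set to a sum of 1000000, 1 of the T and NK cell genes was called higher. The part of these differences in the results below was not tested, and in bulk RNA a smaller share of a cell type and less RNA per cell cannot be told apart.

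The mitochondrial genes were first placed along their genome, since neighbours share bases. On GRCm38 they run from mt-Nd1 (chrM:2751-3707) to mt-Cytb (chrM:14145-15288). Of the 13 genes, 12 lie on the plus strand and mt-Nd6 (chrM:13552-14070) alone on the minus strand. mt-Nd6 meets mt-Nd5 (chrM:11742-13565) tail to tail, and the last 14 bases of one are the reverse complement of the last 14 of the other. The last 60 bases of both transcripts are shown because these neighbours differed most in what was measured. Capitals mark the shared bases.
mt-Nd5: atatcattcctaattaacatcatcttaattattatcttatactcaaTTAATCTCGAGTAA
mt-Nd6: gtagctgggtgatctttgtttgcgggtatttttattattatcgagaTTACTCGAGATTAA
The end of mt-Atp8 (chrM:7766-7969) and the start of mt-Atp6 (chrM:7927-8607) share 43 bases on one strand. They are shown in capitals, since a read from them cannot be given to either gene by its letters.
mt-Atp8: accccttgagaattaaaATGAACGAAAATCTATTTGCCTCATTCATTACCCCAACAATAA
mt-Atp6: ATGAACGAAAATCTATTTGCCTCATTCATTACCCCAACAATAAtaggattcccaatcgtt
These sequences are from the GENCODE M21 transcripts.

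A larger source of shared sequence lies in the nucleus. A stretch of chromosome 1 (chr1:24611535-24616197, GRCm38) carries a copy of part of the mitochondrial genome, annotated as a row of unprocessed pseudogenes. Gm28661 matches mt-Co2 at 681 of 681 bases, Gm10925 matches mt-Atp6 at 678 of 678 and Gm28437 matches mt-Co3 at 783 of 783. Gm28438 matches mt-Nd3 at 344 of 345 bases and differs by T3C, counted from the first base of mt-Nd3. The first 60 bases of that pair are shown with the single difference in capitals.
mt-Nd3: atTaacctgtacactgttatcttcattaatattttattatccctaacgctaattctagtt
Gm28438: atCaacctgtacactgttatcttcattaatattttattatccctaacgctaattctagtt
Gm29216 matches the last part of mt-Co1 at 486 of 492 bases. Gm10222 matches mt-Nd4l at 294 of 294 bases and Gm28439 matches the first 876 bases of mt-Nd4, but both copies were listed at 0 in all 6 libraries. The copies of mt-Nd1, mt-Nd2, mt-Nd5, mt-Nd6 and mt-Cytb that share over 5% of the gene's 31-base words, where there are any, had means under 1. Values are therefore given for each gene as listed and, where copies had values, summed with them.

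Mitochondrial-encoded genes were higher in the libraries labelled Sdc1 KO. Of the 13, 8 passed the test (limma on log2(value + 1), Benjamini-Hochberg adjusted p under 0.05 over 12155 genes) and all 8 rose, while 60.7% of all genes tested were called, 29.3% higher and 31.3% lower. The median log2 fold change of the 13 was 0.70 and that of all genes tested was -0.01. The same 8 rose under each of the 4 scalings of the libraries that were tried, as 28.4% of all genes did. The 7 genes with no copy above 1 all rose, and their groups did not overlap. Both counts include mt-Nd6, which reached the minimum mean of 1 only through the libraries labelled Sdc1 KO. Groups did not overlap in 66.7% of all genes tested, with the libraries labelled Sdc1 KO higher in 32.6% and lower in 34.2%.

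The core subunits of complex I made up 6 of the 8. mt-Nd1 was 905, 1168 and 1353 in the WT libraries and 1528, 1868 and 2181 in those labelled Sdc1 KO, a log2 fold change of 0.71 (SE 0.17, adjusted p = 0.010 by limma). mt-Nd2 was 333, 392 and 483 against 647, 772 and 963 (log2 fold change 0.98, adjusted p = 0.0025). Both encode membrane-arm subunits that take part in moving protons, and in both the lowest library labelled Sdc1 KO lay above the highest WT library. mt-Nd4l was 687, 767 and 754 against 1187, 1263 and 1253 (log2 fold change 0.75, adjusted p = 2.34e-05). mt-Nd4, whose start overlaps the end of mt-Nd4l by 7 bases, was 417, 515 and 569 against 723, 847 and 979 (log2 fold change 0.76, adjusted p = 0.0029). mt-Nd5, the outermost proton-pumping subunit, was 245, 279 and 295 against 402, 447 and 486 (log2 fold change 0.70, adjusted p = 4.66e-04). These 5 plus-strand genes thus rose by similar amounts, between 0.70 and 0.98 on the log2 scale.

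mt-Nd6 had the largest log2 fold change of the 93 members. It was under 1 in every WT library, so it reached the minimum mean of 1 only through the libraries labelled Sdc1 KO. Its membership and its call are therefore not independent of that difference. It was 0.436, 0.497 and 0.475 in the WT libraries and 15.2, 14.1 and 18.4 in those labelled Sdc1 KO, a ratio of means of 33.9. On the log2(value + 1) scale, which understates the change of low values, the fold change was 3.52 (SE 0.10, adjusted p = 9.32e-07 by limma). Relative to mt-Nd5, whose tail it shares, mt-Nd6 stood at 0.161% to 0.178% in the WT libraries and at 3.16% to 3.79% in the others. mt-Nd6 is the light-strand protein gene, and its mRNA is known to carry little or no poly(A) tail, on which the library kit selects. Whether that selection has a part in the difference was not tested. The kit keeps strand, but whether the counting used it is not stated, so RNA from the strand opposite to mt-Nd6 cannot be told apart from its own.

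**Figure D1:**
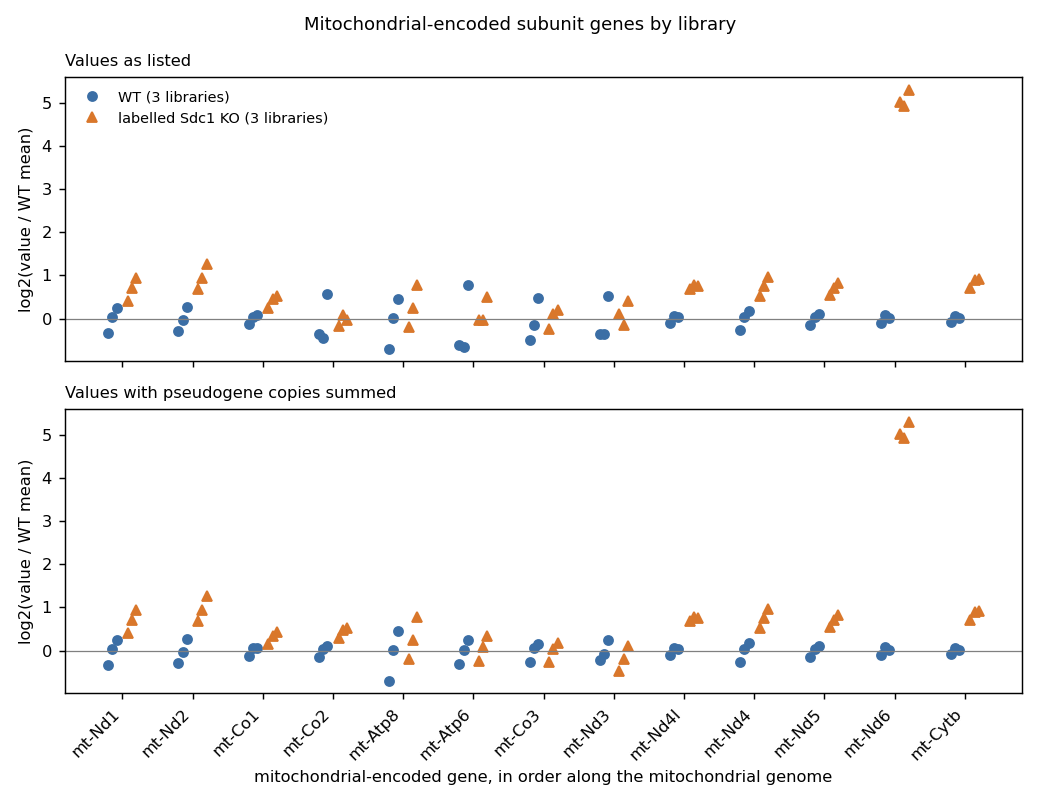
Values of the 13 mitochondrial-encoded genes in each library, as log2 of the value over the WT mean, in order along the mitochondrial genome, as listed (top) and with pseudogene copies summed (bottom). Circles are the 3 WT libraries and triangles the 3 labelled Sdc1 KO. mt-Nd6 lies far above the others, and the genes from mt-Co2 to mt-Nd3 overlap as listed, while mt-Co2 separates once its copies are summed.

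mt-Cytb, the cytochrome b subunit and the single mitochondrial product in complex III, was 1016, 1127 and 1092 in the WT libraries and 1774, 1993 and 2041 in those labelled Sdc1 KO. Its log2 fold change was 0.84 (SE 0.06, adjusted p = 4.22e-05 by limma), and the groups were far apart relative to their spread.

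The complex IV and V genes gave smaller differences. mt-Co1, the catalytic subunit of complex IV, was 2501, 2768 and 2875 against 3226, 3717 and 3892, a log2 fold change of 0.41 (SE 0.08, adjusted p = 0.0040). Summed with its copies it stood at 0.31 (adjusted p = 0.014), so the call did not depend on them. mt-Co2, which carries the first electron acceptor of complex IV, was listed at 1169, 1102 and 2238 against 1332, 1596 and 1468 (log2 fold change 0.04, adjusted p = 0.91). Its copy Gm28661 was low, at 1230, in the library WT 3 where mt-Co2 was high, and at 1733 and 2228 in the other WT libraries. Summed, mt-Co2 was 2905, 3332 and 3471 against 3990, 4492 and 4657, with no overlap and a log2 fold change of 0.44 (SE 0.08, adjusted p = 0.0031). The sum of these identical sequences therefore passed the test where the listed value did not.

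mt-Co3, mt-Atp6 and mt-Nd3 did not pass in either form with group as the only term of the fit. mt-Co3, the third core subunit of complex IV, had the highest value of all members and was listed at 3832, 4885 and 7584 against 4635, 5887 and 6261. Summed with Gm28437 it was 5789, 7248 and 7723 against 5731, 7159 and 7879, a log2 fold change of -0.0011 (SE 0.14, adjusted p = 0.995). The 2 groups thus covered the same range. mt-Atp6, which forms the proton channel of complex V, gave 0.31 as listed (adjusted p = 0.51) and 0.08 with Gm10925 (adjusted p = 0.72). mt-Nd3, a small complex I subunit, gave 0.19 as listed (adjusted p = 0.55) and -0.17 with Gm28438 (adjusted p = 0.42), with sums of 2123, 2336 and 2957 against 1782, 2171 and 2677. mt-Atp8 was listed at 264, 428 and 587 against 373, 507 and 727 (log2 fold change 0.35, adjusted p = 0.39). The library WT 3 decided part of this as listed. Without it mt-Co2, mt-Nd3 and mt-Atp6 passed, at 0.36, 0.48 and 0.78, and 11 of the 13 genes were called higher.

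**Figure D2:**
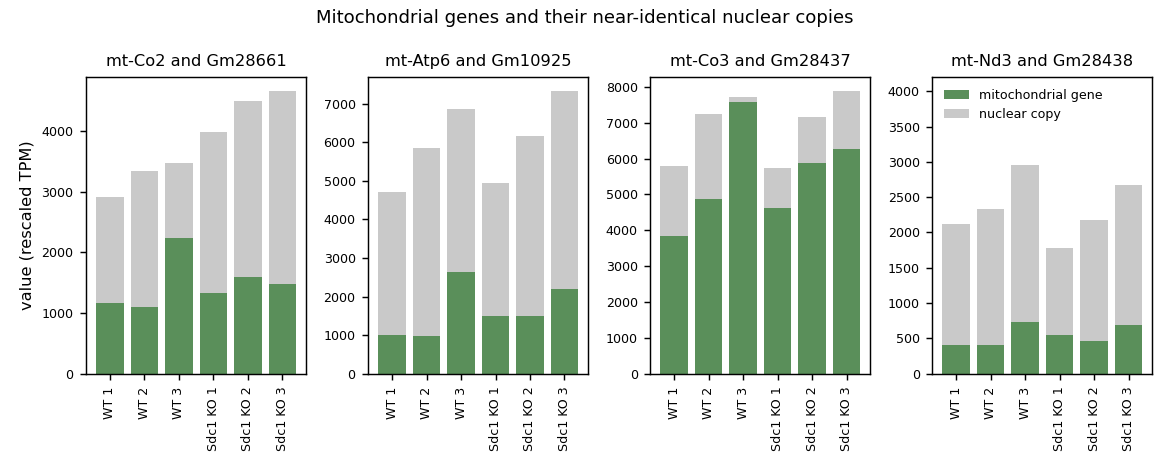
Stacked bars of the value listed for a mitochondrial gene (green) and for its nuclear copy on chromosome 1 (grey) in each library, from 0, in rescaled TPM. The listed share of mt-Co2, mt-Atp6 and mt-Co3 is largest in WT 3, where Gm28437 falls to 139 beside 7584 for mt-Co3, while the sums for mt-Co3 cover the same range in both groups.

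In all, the 7 genes with no copy above 1 took 0.340%, 0.405% and 0.433% of the library sum in the WT libraries and 0.659%, 0.757% and 0.838% in those labelled Sdc1 KO. With copies, all 13 together took 2.24%, 2.70% and 2.96% against 2.98%, 3.54% and 3.98%. The groups did not overlap in either measure, although the highest WT library and the lowest library labelled Sdc1 KO were close in the second. As a summed value all 13 with copies did overlap, at 23724 to 31068 in the WT libraries and 28378 to 37573 in the others. The share of the 13 as listed, without copies, also overlapped, at 1.21% to 2.02% against 1.88% to 2.45%.

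Nuclear-encoded genes moved little and in both directions. Of the 80, 12 rose, 30 fell and 38 did not pass, beside 29.3% and 31.3% of all genes tested. Of the 38, 16 were called higher with each library set to a sum of 1000000 and 8 under all 3 other scalings, so a gene given as not called is not shown to be unchanged. Their median log2 fold change was -0.08 (range -0.68 to 0.54). This direction depended on how libraries were scaled. Setting each library to a sum of 1000000 moved the median of all genes from -0.01 to 0.12, and that of the nuclear members from -0.08 to 0.07, with 28 called higher and 9 lower beside 63.0% of all genes called, 43.5% higher and 19.5% lower. Relative to the median of all genes the nuclear members stood at -0.07 and -0.06 under these scalings. With quantile normalization they stood at 0.00, with 20 called higher and 13 lower beside 59.5% of all genes called, 31.1% higher and 28.4% lower. Their summed value was 28069.5 to 28701 in the WT libraries and 26829 to 27113 in those labelled Sdc1 KO. As a share of the library sum the order was opposite, at 2.68% to 2.71% and 2.84% to 2.85%. The mitochondrial median stayed above 0 under the same scalings, at 0.70 to 0.86.

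**Figure D3:**
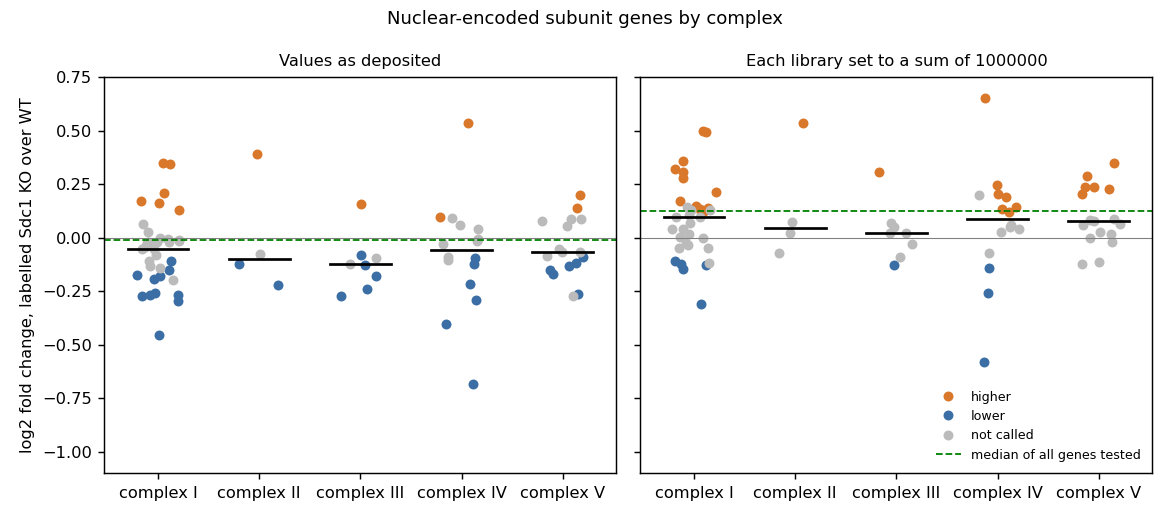
Fitted log2 fold change (libraries labelled Sdc1 KO over WT) of each of the 80 nuclear-encoded genes by complex, with the values as deposited (left) and with each library set to a sum of 1000000 (right). Black bars are medians, the dashed line is the median of all genes tested, and colours give the call. All 5 medians lie below the dashed line on both sides, but below 0 only on the left.

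**Figure D4:**
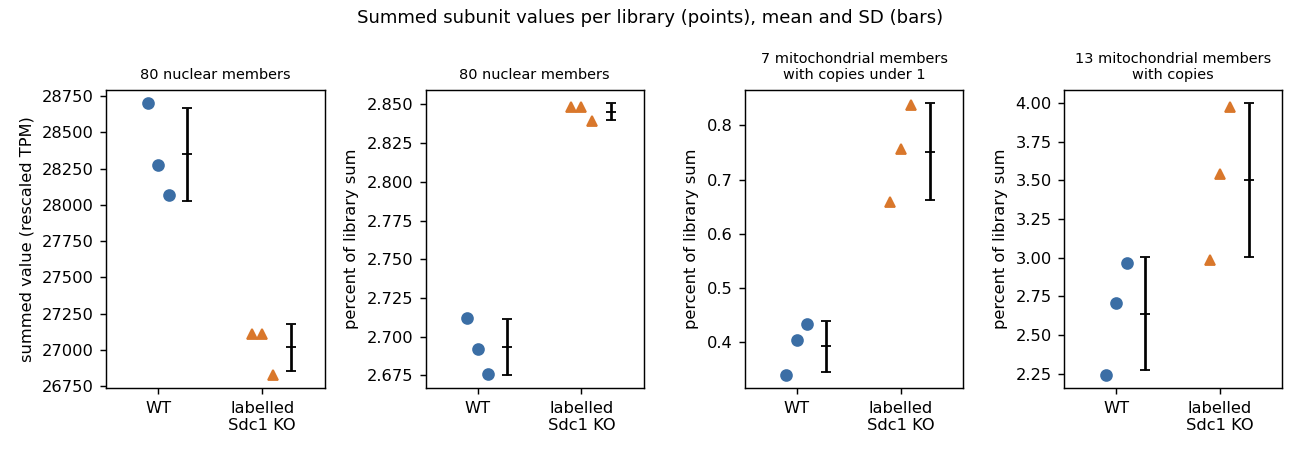
Summed values per library (circles WT, triangles labelled Sdc1 KO) with mean and SD (n = 3). The 80 nuclear members are given as a sum of values and as percent of the library sum, where the order of the groups is opposite. The 7 mitochondrial members with copies under 1 and all 13 with copies summed are given as percent of the library sum, and are higher in the libraries labelled Sdc1 KO. The vertical axes do not start at 0.

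The log2 ratio of the summed mitochondrial to the summed nuclear values was -1.17, -0.93 and -0.41 in the WT libraries and -0.60, -0.38 and -0.21 in the others, a difference of 0.44 with overlap at WT 3. A common factor for all genes of a library leaves this ratio as it is. For the 7 genes with copies under 1 it was -2.99, -2.73 and -2.63 against -2.11, -1.91 and -1.76, a difference of 0.86 with no overlap. With all copies summed the difference was 0.32, and the groups overlapped. No test was run on these ratios.

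Only calls that held under all 4 scalings are followed for single nuclear genes unless stated. There were 12 higher and 9 lower among the 80, beside 28.4% and 18.6% of all genes. All 12 that rose with the values as deposited are among them, but only 9 of the 30 that fell.

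**Figure D5:**
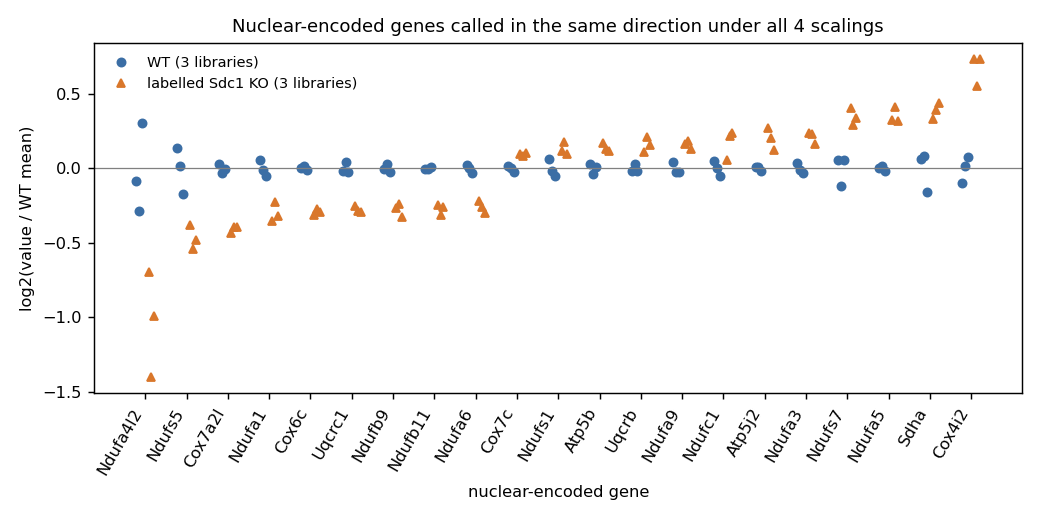
Values in each library, as log2 of the value over the WT mean, of the 9 nuclear-encoded genes called lower and the 12 called higher under all 4 scalings. Circles are the 3 WT libraries and triangles the 3 labelled Sdc1 KO. In all 21 genes the groups do not overlap, and Ndufa4l2 and Cox4i2 move most, at values under 6.

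In complex I, 6 of 35 nuclear genes rose and 11 fell with the values as deposited, and 6 and 5 held under all scalings. Over all genes tested 29.3% rose and 31.3% fell as deposited, and 28.4% and 18.6% did under all scalings. Among the 7 core subunits, which carry the flavin and the iron-sulfur clusters, 2 rose and 2 fell with the values as deposited. Ndufs7, which holds the last cluster before ubiquinone, was 116, 103 and 116 in the WT libraries and 148, 136 and 141 in those labelled Sdc1 KO (log2 fold change 0.35, SE 0.06, adjusted p = 0.0017 by limma). Ndufs1, the largest subunit of the NADH-oxidizing module, rose by 0.13 (adjusted p = 0.027). Ndufv1, which binds NADH and the flavin, was 169 ± 8.05 in the libraries labelled Sdc1 KO and 204 ± 10.1 in WT (SD, n = 3), and this fall of 0.27 was not called with each library set to a sum of 1000000. Core subunits of the same arm therefore gave calls in both directions as deposited, but only the 2 rises held under all scalings.

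Accessory subunits of complex I also went both ways. Ndufa5, of the matrix arm, rose from 177, 178 and 174 to 221, 235 and 220 (log2 fold change 0.35, adjusted p = 1.44e-04). Ndufa3 rose by 0.21 and Ndufa9, next to the ubiquinone site, by 0.16. Ndufc1 rose by 0.17 but lost its call without any of 4 single libraries, WT 2, WT 3, Sdc1 KO 2 or Sdc1 KO 3. The genes that fell under all scalings were Ndufs5, Ndufa1, Ndufb9, Ndufb11 and Ndufa6. Ndufa1 and Ndufb11 are X-linked, and Ndufa1 was 249 ± 9.45 in WT and 202 ± 9.29 in the libraries labelled Sdc1 KO (log2 fold change -0.30, adjusted p = 0.0011). Ndufb11 fell by 0.27 on the log2 scale (adjusted p = 2.24e-04), and the other X-linked member, Cox7b, was not called (0.06, adjusted p = 0.18) but was called higher under the other 3 scalings (0.11 to 0.22). The most abundant nuclear member of complex I, Ndufb8, fell by 0.18 on the log2 scale with the values as deposited and by 0.03 with each library set to a sum of 1000000, where it was not called.

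Ndufs5, an accessory subunit on the side of the intermembrane space, has a processed pseudogene that changed its result. Ndufs5 was listed at 161, 148 and 130 in the WT libraries and 112, 101 and 105 in those labelled Sdc1 KO (log2 fold change -0.46, SE 0.08, adjusted p = 0.0023). The pseudogene BC002163 (chr16:42955631-42955949, GRCm38) was listed at 0 in every WT library and at 34.0, 41.3 and 27.7 in the others. It matches the Ndufs5 transcript at 317 of 319 bases. The first 120 bases of the Ndufs5 coding sequence are shown with both differences in capitals, since only reads over them separate the pair within the aligned stretch.
Ndufs5: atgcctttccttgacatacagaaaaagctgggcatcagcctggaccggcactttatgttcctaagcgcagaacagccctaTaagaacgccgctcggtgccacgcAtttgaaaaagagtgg
BC002163: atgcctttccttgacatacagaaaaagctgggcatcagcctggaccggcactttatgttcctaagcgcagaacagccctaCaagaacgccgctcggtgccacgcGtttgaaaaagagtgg
The differences are T173C and A197G, counted from the first base of the 525-base transcript. Summed with BC002163, Ndufs5 was 161, 148 and 130 against 146, 142 and 133. The groups then overlapped, with a log2 fold change of -0.06 (SE 0.08, adjusted p = 0.57 by limma). Of the 12 rises and 30 falls of nuclear genes with the values as deposited, summing all copies left the counts at 12 and 30, since Ndufs5 was lost and Ndufb4, summed with Ndufb4c, was gained (-0.10, adjusted p = 0.043).

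Complex II, which has no mitochondrial-encoded subunit, split by subunit. Sdha, the flavin-bearing catalytic subunit, rose from 165, 167 and 141 to 199, 207 and 214 (log2 fold change 0.39, SE 0.07, adjusted p = 0.0022). The iron-sulfur subunit Sdhb fell from 175 ± 5.66 to 160 ± 1.49 (SD, n = 3, log2 fold change -0.13, adjusted p = 0.013). The membrane anchor Sdhc fell by 0.22 on the log2 scale (adjusted p = 0.0032), and the other anchor, Sdhd, stood at -0.08 (adjusted p = 0.063). Sdha was called higher under all scalings. Sdhb, Sdhc and Sdhd were not called with each library set to a sum of 1000000, where Sdhb and Sdhd turned to 0.02 and 0.07.

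In complex III, 1 of 8 nuclear genes rose and 5 fell, beside 29.3% and 31.3% of all genes tested. Uqcrc1, a core protein of the matrix side, was 140, 145 and 138 in the WT libraries and 118, 116 and 115 in the others (log2 fold change -0.28, SE 0.03, adjusted p = 2.62e-04), and it alone fell under all scalings. Its partner Uqcrc2 fell by 0.24 on the log2 scale with the values as deposited (adjusted p = 0.0010). Uqcrb, a small subunit at the ubiquinone site, rose from 281, 291 and 281 to 307, 329 and 317 (log2 fold change 0.16, adjusted p = 0.0065). Uqcrq gave -0.18 (adjusted p = 0.041) and Uqcrh, the most abundant, -0.08 (adjusted p = 0.046). The calls of Uqcrq and Uqcrh were each lost without any of 5 single libraries, and Uqcrh turned to 0.07 with each library set to a sum of 1000000. With that sum over genes not on the mitochondrial genome Uqcrh was called in the opposite direction, higher, at 0.08. mt-Cytb of the same complex rose by 0.84, outside the range of the 8 nuclear genes, whose log2 fold changes ran from -0.28 to 0.16.

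In complex IV, 2 of 16 nuclear genes rose and 6 fell, beside 29.3% and 31.3% of all genes tested. Under all scalings 2 and 3 held, beside 28.4% and 18.6% of all genes. Several subunits have alternative isoforms. Cox4i1, the common form of subunit 4, was 1102, 1060 and 1050 in the WT libraries and 930, 902 and 927 in those labelled Sdc1 KO (log2 fold change -0.22, SE 0.03, adjusted p = 8.70e-04). Cox4i2, known from lung and from cells low in oxygen, was 2.84, 3.06 and 3.20 against 5.06, 4.45 and 5.06 (log2 fold change 0.54, SE 0.07, adjusted p = 5.38e-04). It stayed far below Cox4i1 in each library, and the fall of Cox4i1 was not called with each library set to a sum of 1000000 (-0.07). Ndufa4, now counted with complex IV, was 621, 651 and 630 against 572, 605 and 601 (log2 fold change -0.10, adjusted p = 0.042), lost its call without any single library, and turned to 0.05 with each library set to a sum of 1000000. Its hypoxia-induced paralog Ndufa4l2 was 2.94, 2.55 and 3.84 against 1.93, 1.18 and 1.57 (log2 fold change -0.68, SE 0.15, adjusted p = 0.0061). The isoforms linked to low oxygen thus moved in opposite directions.

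Cox7a2l, which helps to join complexes III and IV, was 443, 426 and 434 in the WT libraries and 321, 330 and 331 in those labelled Sdc1 KO (log2 fold change -0.41, SE 0.03, adjusted p = 3.31e-05). Summed with its copy Gm6969 it stood at -0.41. Its relatives Cox7a2 (-0.03, adjusted p = 0.44) and Cox7a1 (0.09, adjusted p = 0.45) were not called, and Cox7a1 had a mean of 2.89. Cox7a2 was called higher under both scalings to a sum of 1000000 (0.12 and 0.13). Cox6c fell from 806 ± 7.49 to 658 ± 8.78 (SD, n = 3, log2 fold change -0.29, adjusted p = 9.92e-05). Cox7c rose from 651 ± 8.83 to 696 ± 4.88 (log2 fold change 0.10, adjusted p = 0.016). Cox6a1 and Cox8a were not called, although Cox8a was called higher under the other 3 scalings (0.17 to 0.20). Cox6a2 was at or under 0.290 in every library, and the muscle isoform Cox8b and Cox8c were listed at 0. Cox6b1 and the testis isoform Cox6b2 had means of 684 and 108.5 and log2 fold changes of -0.01 and -0.09, and neither was called as deposited, while Cox6b1 was called higher under the other 3 scalings (0.10 to 0.15).

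In complex V, 2 of 17 nuclear genes rose and 6 fell, beside 29.3% and 31.3% of all genes tested. Only the 2 rises held under all scalings, beside 28.4% higher and 18.6% lower over all genes. Atp5b, the catalytic subunit and the most abundant nuclear member, was 1462, 1397 and 1440 in the WT libraries and 1612, 1567 and 1551 in the others (log2 fold change 0.14, SE 0.03, adjusted p = 0.0078). Atp5a1, which alternates with it in the catalytic ring, gave -0.17 (adjusted p = 0.0025) and -0.02 with each library set to a sum of 1000000. Atp5j2, a small membrane subunit, rose from 365, 364 and 357 to 436, 417 and 394 (log2 fold change 0.20, adjusted p = 0.0046). Atp5l, which sits beside it, fell from 719, 749 and 745 to 574, 622 and 652 (log2 fold change -0.26, adjusted p = 0.0033) and was not called with each library set to a sum of 1000000 (-0.11). The genes of the c-ring make the same mature protein. Atp5g3 gave -0.15 (adjusted p = 0.0072), Atp5g1 0.08 (adjusted p = 0.16) and Atp5g2 -0.27 (adjusted p = 0.099), and Atp5g1 was called higher under the other 3 scalings (0.20 to 0.24). Atp5g2 shares 37.5% of its 31-base words with the pseudogene Gm10175, and the sum with its copies gave -0.04 (adjusted p = 0.41).

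RefSeq promoters on GRCm38 were searched for letters bound by regulators known for these genes. Windows of 300 bases, 250 before the gene's start and 50 after it, were found for 66 of the 80 nuclear members. The YY1 letters AAGATGGC, on either strand, were in 10 of the 66 (15.2%) beside 3.19% of 27025 genes with a window. The ETS letters CCGGAAG were in 16 (24.2%) beside 9.93%, and the NRF1 letters (GCGC, AT and GCGC in a row) in 5 (7.58%) beside 1.07%. Of the 10 members with the YY1 letters, 5 rose (Ndufs7, Ndufa3, Atp5j2, Ndufc1 and Ndufa9), 1 fell (Ndufb8) and 4 were not called. Of the 16 with the ETS letters none rose and 5 fell, and of the 5 with the NRF1 letters none rose and 1 fell. Over all genes tested, 29.3% were called higher and 31.3% lower, and no link between letters and direction was tested. Windows were found for only 9 of the 12 genes that rose and 21 of the 30 that fell, too few to compare shares between them. In all 5 that rose the YY1 letters began 22 to 29 bases after the gene's start. They also began after it in Ndufs6 (33) and Ndufs4 (35), which were not called, and in Ndufb8 (38), which fell. In Atp5f1 and Atp5j, not called, they began at -3 and -88 relative to the start. For the 5 that rose, 28 bases around the letters are shown with the letters in capitals.
Ndufs7: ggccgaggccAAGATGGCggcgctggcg
Ndufa3: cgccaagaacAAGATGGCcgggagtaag
Atp5j2: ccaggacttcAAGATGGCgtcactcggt
Ndufc1: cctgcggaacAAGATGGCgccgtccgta
Ndufa9: attgtgggagAAGATGGCggccgccgtc
The letters hold ATG and did not overlap a match of another motif in these windows. A match describes the sequence and is not a bound site. Yy1 itself was not called (-0.01, adjusted p = 0.74), nor were Nrf1 (-0.09, adjusted p = 0.26) and Gabpa (-0.01, adjusted p = 0.94), an ETS factor known for these genes.

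Genes that serve the same system were read from lists. Of 17 genes for copying and transcribing mitochondrial DNA, 10 rose and 0 fell, with a median log2 fold change of 0.12, and 8 of the rises held under all scalings, beside 29.3% of all genes called higher and 28.4% under all scalings. Polrmt, the mitochondrial RNA polymerase, was higher in each library labelled Sdc1 KO, at 20.4 or more, than in any WT library (log2 fold change 0.57, SE 0.10, adjusted p = 0.0025). Mterf1b, a termination factor whose near-copy Mterf1a may share its reads, rose by 0.66 (adjusted p = 4.88e-04). Tfam, which packs the genome and starts transcription, was not called (-0.01, adjusted p = 0.94). Of 17 genes of mitochondrial RNA processing and decay, 10 rose and 2 fell, beside 29.3% and 31.3% of all genes. Fastk, whose product is needed for the mt-Nd6 mRNA, rose from 24.1, 29.5 and 25.7 to 43.4, 38.0 and 37.5 (log2 fold change 0.57, adjusted p = 0.0011), and Fastkd2 rose by 0.49 (adjusted p = 2.07e-04). Mtpap, the mitochondrial poly(A) polymerase, was not called (-0.05, adjusted p = 0.53).

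Assembly factors were called higher for 19 of 50 genes and lower for 8, and all 19 rises and 3 of the falls held under all scalings. For this and the following lists, the shares over all genes were 29.3% higher and 31.3% lower as deposited. Under all scalings they were 28.4% and 18.6%. The largest changes among assembly factors were falls of Lyrm7 and Coa7. Lyrm7, a factor for the Rieske protein of complex III, gave -1.26 (from 5.64 ± 0.86 to 1.75 ± 0.10, SD, n = 3). Coa7, a complex IV factor, gave -0.76. Of 15 electron carrier genes, 5 rose and 3 fell. Coq4 and Coq6, both of ubiquinone synthesis, rose by 0.62 and 0.39. Of 18 citric acid cycle genes, 6 rose and 6 fell, and Idh2 (0.42) and Ogdh (0.29) gave the largest differences. Of 11 transcriptional regulators, 5 rose and 1 fell. Pprc1, a coactivator of the PGC-1 family, was 15.9, 15.9 and 14.9 against 33.5, 29.6 and 31.5 (log2 fold change 0.97, adjusted p = 1.11e-05), and Hcfc1 rose by 0.64. The medians of these lists were -0.01 to 0.19 with the values as deposited and 0.14 to 0.34 with each library set to a sum of 1000000, where the median of all genes was 0.12. The medians as deposited are above that of the nuclear subunit genes, and no test of that difference was made.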

How the data were processed

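RNA-seq of Lin- bcCML cells was analysed in 3 WT libraries and 3 labelled Sdc1 KO, grouped by the labels. Libraries were made from 150 ng of RNA with a stranded poly(A) kit and read as single reads of 75 bases. The authors ran kallisto (version not given in the sources used here) and sleuth 0.30.0, and their processing notes name mm10. They deposited a signal per gene, TPM rescaled between libraries. A second deposited table holds the authors' own comparison (p, q, effect size with its error on the natural log scale, means and variances) and was not used here. The design assumed TPM, and the test was kept for the rescaled values. Read depth is unknown, so no counting interval is given.

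Identifiers matched GENCODE M21 (GRCm38) for 35454 of 36083 genes. The 12155 genes averaging 1 or more were transformed to log2(value + 1) and fitted in limma 3.58.1 under R 4.3.3 (group term, trended variance prior). On simulated data 195 of 200 genes changed by 1 on the log2 scale were recovered (97.5%), with 12 false calls. Copies were pseudogenes sharing at least 5% of a member's 31-base words. Alternatives changed the pseudocount (0.1, 0.5), minimum mean (none, 5), scaling, variance trend, replicate block, libraries and members. Summing copies was added after seeing the data. The members and lists were chosen with earlier results of these data known. Named genes were all mitochondrial members, the 3 called with the largest change and the most abundant of each complex, complex II, isoforms, up to 10 nuclear genes called against the majority, and 2 per list (the mitochondrial rRNA genes of that rule were not analysed here). Other genes given values (among them Cox6c, Ndufa1, Ndufb11, Ndufv1, Ndufs1, Cox7c, Tfam and Mtpap) were chosen after their values were seen. Sums and figures used Python 3.11.15 with matplotlib 3.10.9, pandas 2.3.3 and numpy 2.4.6.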

Additional observations from a re-analysis of the deposited data

How the results depend on the processing

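The 8 mitochondrial calls (0 lower) moved to at most 11 under the alternatives, and the mitochondrial median stayed above 0. The nuclear median of -0.08 turned to 0.0664 with a sum of 1000000 per library, 0.0757 with that sum over genes not on the mitochondrial genome and 0.0167 with quantile normalization. Nuclear genes called were then 28 higher and 9 lower, 34 and 9, and 20 and 13, beside 12 and 30 as deposited. All members called were 36 and 9, 42 and 9, and 28 and 13, beside 20 and 30. Over all genes, calls were 5290 higher and 2367 lower with a sum of 1000000, and 5416 and 2304 with that sum over genes not on the mitochondrial genome, beside 3564 and 3810. The libraries labelled Sdc1 KO had lower sums, so setting sums equal raises their values by construction. The cause of the shift with quantile normalization was not tested. The difference between groups in the log2 ratio of mitochondrial to nuclear values was 0.44 for all genes as listed. It moved to 0.86 with only the mitochondrial genes whose copies were under 1. With all copies summed it moved to 0.32, and the groups overlapped.

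Leaving out single libraries gave 8 to 11 mitochondrial genes higher and 0 lower, 9 to 12 nuclear genes higher and 22 to 30 lower, 18 to 20 and 22 to 30 members, and 3083 to 3353 and 3380 to 3608 genes in all. The medians ran from 0.55 to 0.77 and from -0.09 to -0.07. The difference between groups in the log2 ratio ran from 0.27 to 0.65. Of 60 named genes tested, 34 kept sign and call under all alternatives.

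The named genes that turned sign had log2 fold changes as deposited between -0.15 (Atp5g3) and 0.19 (mt-Nd3). The list below covers named genes only, and other members turned sign as well. Among these, Atp5c1 and Uqcrfs1, both called lower at -0.13 as deposited, were each at 0.02 with a sum of 1000000 per library. With copies summed, mt-Nd3 was -0.17 and mt-Co3 -0.0011. mt-Co2 ran from -0.15 to 0.364 when single libraries were left out, below 0 without WT 1, WT 2 or Sdc1 KO 2. On the same terms mt-Co3 ran from -0.13 to 0.359, below 0 without WT 1, and Cox6b1 from -0.0278 to 0.0164, above 0 without WT 1 or Sdc1 KO 1. The values with a sum of 1000000, with that sum over genes not on the mitochondrial genome and with quantile normalization were 0.0665, 0.0757 and 0.0399 for Uqcrh, 0.0706, 0.0798 and 0.0252 for Sdhd, 0.0418, 0.0511 and 0.0002 for Cox6a1, 0.143, 0.152 and 0.105 for Cox6b1, 0.0571, 0.0663 and 0.0038 for Cox6b2, 0.120, 0.129 and 0.0275 for Cox7a2 and 0.0506, 0.0598 and 0.0345 for Ndufa4. Sdhb was 0.0221 and 0.0313 under the first 2, and Atp5g3 0.0075 under the second.

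The replicate numbers were not taken as pairs, since no source ties them to a mouse or batch and the correlations over all genes did not all pass 0.1. Correlations of same-numbered libraries over all genes were 0.15, -0.01 and 0.02, though over the members they were 0.70, 0.48 and 0.66, the highest for every library. Many members vary together, and whether the numbers are pairs was not tested. With the replicate block 9 mitochondrial genes were higher and 0 lower, and 11 nuclear genes higher and 35 lower. The block gained mt-Atp8 (0.35, adjusted p = 0.0043), Sdhd and Cox6a1 and lost Uqcrh and Ndufc1. With the block and copies summed, 11 mitochondrial genes were higher and 1 lower. The lower one was mt-Nd3 (-0.17, adjusted p = 0.0125), and mt-Atp6 was among the higher (0.08, adjusted p = 0.0321).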
